A study of Mus musculus with 18 samples.

Results

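The expression of genes after induction of the reprogramming factors was compared directly with that after a mix of reprogramming compounds in normal mouse blood progenitors. The cells were LSK cells, the lineage-negative, Kit-positive and Sca1-positive marrow fraction that holds the stem and multipotent progenitor cells of the blood. The comparison was set by the sample titles and took 5 of the 18 arrays of the study: the 3 arrays of LSK cells given doxycycline (Dox) and the LSK compound arrays replicate 2 and replicate 3. LSK compound replicate 1 was left out as a failed array, so that 2 arrays remain on the compound side. All LSK cells came from 4F mice, whose transgenes express Oct4, Sox2, Klf4 and c-Myc when Dox is given, so the control and compound cells carried the uninduced transgenes too. The control cells had neither Dox nor compounds, and both treatments lasted 24 h in culture after the sort. The compounds were VPA, CHIR, 616452 and TCP. No dose, mouse age, promoter of the transgenes or vehicle is stated by the labels. The study also held 9 arrays of GFP-positive MLL-AF9 acute myeloid leukemia (AML) cells from leukemic mice as control, with Dox and with compounds (3 each), which are used here in the estimate of the spread and in the last comparison. In these AML cells, too, Dox was given to induce the reprogramming factors. By their titles the arrays within a group are biological repeats, without word on whether each came from its own mouse. The p-values therefore reflect only how far these arrays spread.

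Oct4 (gene Pou5f1), Sox2, Klf4 and Myc are transcription factors that together reset a differentiated cell towards pluripotency, and Klf4 and Myc also act in blood cells on cell cycle and myeloid genes. The compounds of the mix act on enzymes and a receptor. VPA inhibits histone deacetylases, and CHIR inhibits the kinase GSK3 and so stabilises beta-catenin. The compound 616452 blocks the type I receptor of TGF-beta, and TCP inhibits the histone demethylase LSD1 (gene Kdm1a). Stem and progenitor cells of the blood also carry sensors and receptors for infection and inflammation, which act through NF-kB and the interferon regulatory factors and switch on cytokine, chemokine and antigen presentation genes.

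The RNA level of a gene is given as a log2 value made by RMA from a whole-transcript array, so that 1 unit is a factor of 2, and a difference is the Dox mean minus the compound mean. On an LSK array the 40th percentile of all probe sets, which served as the limit for a low signal, lay between 2.34 and 2.37. Over all probe sets the 3 Dox arrays correlated with each other at r = 0.987 to 0.989 and the 2 compound arrays at 0.984, against 0.949 to 0.957 between a Dox and a compound array. The left-out array correlated with the other 17 at 0.638 to 0.672, and its median was 3.24 with an SD of 1.45 over probe sets, whereas the other LSK arrays had medians of 2.67 to 2.71. Of the 6 LSK markers, 5 were measured by a probe set of that gene alone (Ly6a, the Sca1 gene, was not), and each was above the low-signal limit on every LSK array. Their summed level was taken on the linear scale and given as log2. It was 10.27 to 10.33 with Dox, 10.21 to 10.30 with compounds and 10.54 to 10.59 in control. Cd34, the highest, weighs most in it. The members went different ways: Kit was at 6.89 to 7.02 with Dox and 8.57 with compounds, and Flt3 at 6.47 to 6.55 and 5.42 to 5.71. Cd34 and Mecom were also higher with Dox, and Procr overlapped. T and NK cell and erythroid marker sums stayed between 3.65 and 4.28 on the LSK arrays. The B cell sum was 4.12 to 4.15 in control, 4.17 to 4.36 with Dox and 4.43 to 4.47 with compounds. Within it Ebf1 was under the low-signal limit on all control and Dox arrays and at 3.04 to 3.37 with compounds. Cd79a was higher with Dox, and Pax5 overlapped. Of 10 B lymphoid genes 5 were higher with compounds and 2 with Dox (70.0% called, against 31.4% of all genes tested). The stromal and endothelial sum was 5.77 to 5.92 with Dox and 6.23 to 6.58 with compounds.

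The arrays of the groups also differed in genes of the sex chromosomes, which no treatment here was meant to act on. Xist, a long noncoding RNA that coats and shuts off one X chromosome in females, was at 9.77, 9.49 and 9.75 on the Dox arrays and at 7.35 and 7.32 on the compound arrays. Eif2s3y, a Y-linked gene, was at 2.04, 1.75 and 1.87 with Dox and at 5.47 and 5.20 with compounds. The Y-linked genes Uty and Kdm5d were likewise higher on both compound arrays, by 3.22 and 2.44 on the log2 scale. All 3 Y-linked genes were below the low-signal limit on all Dox arrays. With low values set to that limit, Dox minus compound was -2.73 for Uty and -2.08 for Kdm5d. On the LSK control arrays Xist was at 9.28 to 9.56 and the 3 Y-linked genes were at 1.50 to 2.02, as on the Dox arrays. The sex of the mice is not in the labels, and the part of this difference in the results that follow was not tested.

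The promoters of the genes with the largest difference in each direction show the letters found by a search for motifs of the induced factors and of inflammatory signalling. Shown are the 250 bases before the start of each gene, from RefSeq on GRCm38.p6, printed 5′ to 3′ on the gene's own strand with each motif match in capitals. Klrb1f, which encodes a lectin-like receptor of the natural killer gene complex, lies at chr6:129045651-129045900 on the plus strand. Cxcl10, which encodes an interferon-induced chemokine, lies at chr5:92348890-92349139 on the minus strand.
Klrb1f: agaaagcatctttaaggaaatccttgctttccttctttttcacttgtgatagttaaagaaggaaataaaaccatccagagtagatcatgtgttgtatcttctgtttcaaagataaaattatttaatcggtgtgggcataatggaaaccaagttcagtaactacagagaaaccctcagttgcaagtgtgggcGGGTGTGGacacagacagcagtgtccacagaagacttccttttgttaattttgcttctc
Cxcl10: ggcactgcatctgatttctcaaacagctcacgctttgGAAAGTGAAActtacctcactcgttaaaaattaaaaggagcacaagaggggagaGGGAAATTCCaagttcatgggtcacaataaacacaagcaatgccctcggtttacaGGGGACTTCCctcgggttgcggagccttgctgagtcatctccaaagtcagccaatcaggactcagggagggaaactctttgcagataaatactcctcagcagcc
The capitals mark GGGTGTGG in Klrb1f, a match to the Klf4-type motif GGGNGTGG from base -59 to base -52 before the start. In Cxcl10 they mark GAAAGTGAAA from -213 to -204, a match to GAAA, any 2 bases and GAAA, the core of an interferon-stimulated response element (ISRE). They also mark GGGAAATTCC from -159 to -150 and GGGGACTTCC from -104 to -95, both of the NF-kB-type motif GGG, any 3 bases and TTCC. Motifs were searched on both strands of the whole 300-base window, which is 250 bases before and 50 after the start, in 27025 RefSeq promoters. GGGNGTGG occurred in 17.6% of all promoters, the ISRE-type motif in 3.49% and the NF-kB-type motif in 5.52%. Of the 15 genes named in each direction, 12 each had a promoter entry. GGGNGTGG was in 3 of the 12 higher with Dox and 5 of the 12 higher with compounds, the ISRE-type motif in 1 and 3, and the NF-kB-type motif in 1 and 3. The E-box CACGTG, found in 7.24% of all promoters, was in 2 and 1 of them. Neither the TCF/LEF-type CTTTGAT (3.72% of all) nor the octamer ATGCAAAT (1.75%) was in any of these windows. A match is a description of the sequence and not a binding site, and the ISRE-type and NF-kB-type motifs were added after the values were seen.

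Of the 4 induced factors, the RNA of Klf4 stood out. Klf4 was at 8.30, 8.15 and 8.18 on the Dox arrays and at 4.92 and 4.89 on the compound arrays, with LSK controls at 3.72 to 3.95. All Dox arrays lay above both compound arrays, by 3.31 ± 0.12 (SE) on average (limma adjusted p = 1.13e-12). Compounds alone also went with more Klf4 than control, by 1.07. Myc was at 8.66, 8.66 and 8.89 with Dox and at 8.52 on both compound arrays, a difference of 0.21 whose 95% interval was -0.12 to 0.53. Both treated groups lay below the control level of Myc, which was 9.19 to 9.41. The native probe sets of Sox2 and Pou5f1 stayed near the low-signal limit. Sox2 was at 2.48 to 3.23 with Dox and 2.49 to 2.68 with compounds (interval of the difference -0.28 to 0.72), and Pou5f1 was at 2.78 to 3.44 and 2.79 to 3.18 (-0.23 to 0.53). Whether these probe sets lie in the part of the RNA that a transgene carries was not checked here.

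Across all 16912 genes tested, 5309 differed between Dox and compounds in limma at an adjusted p under 0.05, which is 31.4% of those tested. Higher with Dox were 2930 genes (17.3%), and higher with compounds 2379 (14.1%). The list counts below are to be read against these shares. Among differences of at least 2-fold, 719 were higher with Dox and 839 with compounds. At 4-fold or more the split was 175 against 329. The plot of the group means shows the cloud of genes along the diagonal and its edges. The points farthest above the diagonal are Klrb1f, Hbb-y and Akr1c18, and those farthest below it Cxcl10, Il1b and Il1a. Set against LSK control in the same fit, 3094 genes (18.3%) differed with Dox and 5611 (33.2%) with compounds, and both counts rest on the same 3 control arrays. Of the 471 genes that differed from control by at least 2-fold with Dox, 402 were higher. Of the 1445 with compounds, 912 were higher.

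**Figure D1:**
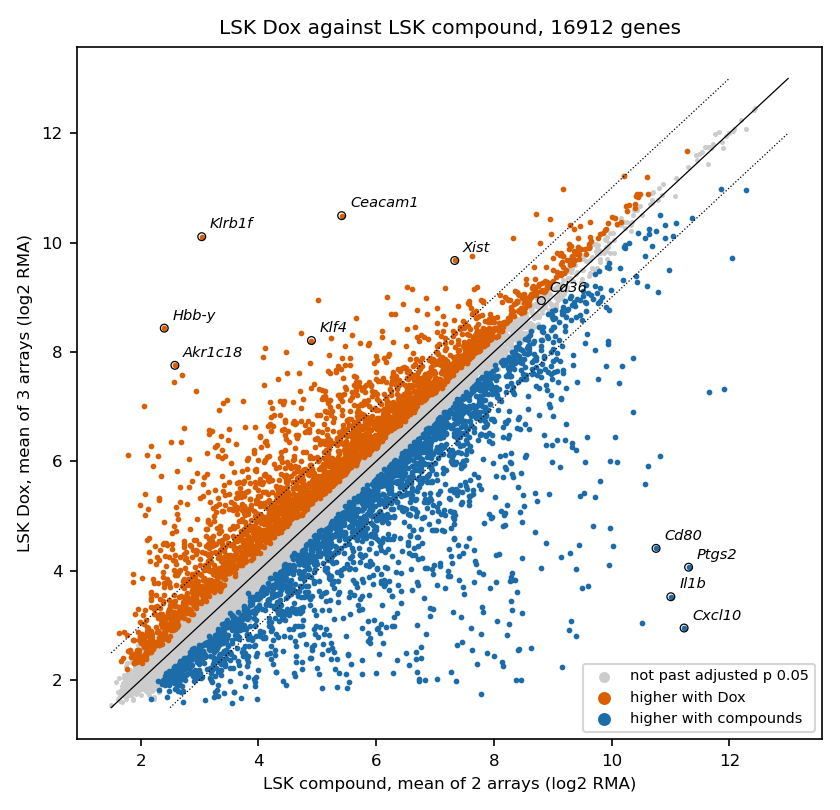
Mean log2 RMA level of 16912 genes in LSK cells with Dox (y axis, 3 arrays) against LSK cells with compounds (x axis, 2 arrays), coloured by the limma call at an adjusted p of 0.05; the solid line marks equal levels and the dotted lines a 2-fold difference. Klrb1f and Hbb-y stand farthest above the line, Cxcl10 and Il1b farthest below, and Cd36 lies on it at a high level in both.

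The 15 genes with the largest differences towards Dox were led by Klrb1f, the embryonic globin Hbb-y and the steroid-reducing enzyme Akr1c18. Klrb1f was at 10.17, 10.15 and 10.00 on the Dox arrays and at 3.35 and 2.73 on the compound arrays. Controls lay between them at 6.25 to 6.35, so that Klrb1f was 3.82 higher than control with Dox and fell by 3.24 with compounds. The direct difference was 7.07 ± 0.15 (SE; limma adjusted p = 1.94e-15). Hbb-y, the globin of the yolk sac, was at 8.40, 8.16 and 8.75 with Dox. It stayed at 2.25 and 2.55 with compounds and at 1.92 to 2.40 in controls, which puts it near the low-signal limit in both. Akr1c18, which inactivates progesterone, was at 7.71, 7.79 and 7.78 with Dox and at 2.82 and 2.34 with compounds. Like Hbb-y it rose from control with Dox, by 4.72, while its level with compounds was 0.45 under that of control (adjusted p = 0.0469 in limma).

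The other 12 genes fell into 3 patterns against control. Ceacam1, an adhesion receptor of the carcinoembryonic antigen family, and S100a4, a calcium-binding protein, moved both ways. Ceacam1 was at 10.48, 10.55 and 10.44 with Dox, 7.09 to 7.16 in control and 5.48 and 5.36 with compounds. S100a4 was 2.16 above control with Dox and 2.71 below it with compounds, a direct difference of 4.87. Genes of the second pattern were high with Dox, while with compounds they lay within 1 unit of the control level. Nt5e (CD73, the ecto-enzyme that makes adenosine) was at 7.36, 7.22 and 7.30 with Dox against 3.02 and 2.87 with compounds and 2.86 to 3.34 in control. Cd109, a surface protein that binds TGF-beta, was at 6.07 to 6.15 with Dox and under the low-signal limit on both compound arrays, where its difference of 4.33 becomes 3.74 if low values are set to that limit. Thy1, a surface marker whose level separates stem cell fractions, was at 8.23, 8.03 and 7.99 with Dox and at 4.24 and 3.98 with compounds. S100a6 (difference 3.93), the chitinase-like Chil5 (4.11), Plek2 (3.86) and the tubulin-binding Stmn2 (3.84) followed the same pattern, as did the carboxylesterase Ces2g (4.95), which was also 0.94 lower than control with compounds. Chil5 and Ces2g were under the low-signal limit on both compound arrays (3.91 and 4.64 with low values set to it). In the third pattern the gene was lost with compounds. Chad, an extracellular matrix protein, was at 7.54, 7.41 and 7.41 with Dox, at 6.94 to 7.49 in control and at 2.51 and 2.61 with compounds. Bex6 was at 5.70 to 6.62 with Dox, 7.17 to 7.57 in control and 2.0 and 2.23 with compounds, under the low-signal limit.

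**Figure D2:**
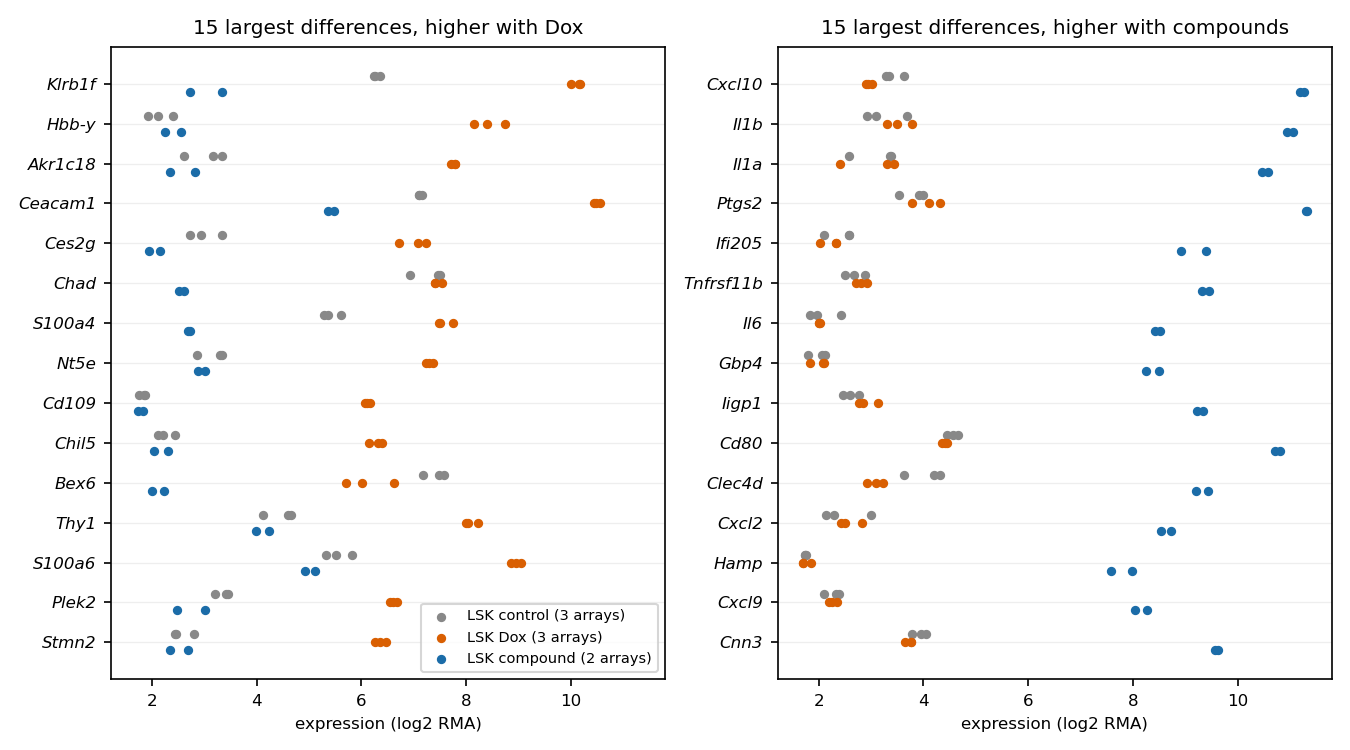
Log2 RMA level on each LSK array (points) of the 15 genes with the largest difference in each direction, with control in grey (3 arrays), Dox in orange (3 arrays) and compound in blue (2 arrays). On the left the orange points stand apart on the right-hand side for each gene but Chad and Bex6, where grey points are as high or higher; on the right-hand panel grey and orange points lie together for most genes and the blue points stand 5.87 to 8.28 above the Dox mean.

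The 15 largest differences towards compounds were led by a chemokine, Cxcl10, and by the interleukins Il1b and Il1a. Cxcl10 was at 11.20 and 11.26 on the compound arrays and at 3.02, 2.94 and 2.91 on the Dox arrays, with controls at 3.28 to 3.64. The difference of -8.28 ± 0.15 (SE; limma adjusted p = 3.76e-16) was the largest of all genes tested. Il1b and Il1a came next, and Il6 was also among the 15. Il1b was at 11.06 and 10.95 with compounds against 3.50, 3.78 and 3.31 with Dox. Il1a was at 10.47 and 10.58 against 3.44, 3.30 and 2.40. Il6 was at 8.52 and 8.41 against 2.01 to 2.02, a level under the low-signal limit on all Dox arrays. That both compound arrays lay above the 3 Dox arrays in these cytokines follows from the ranking, which took only genes whose groups do not overlap. Ptgs2, the inducible cyclooxygenase that makes prostaglandins, was at 11.32 and 11.30 with compounds and 4.32, 4.11 and 3.78 with Dox. The interferon-induced genes Ifi205 (-6.92), Gbp4 (-6.37) and Iigp1 (-6.36) and the chemokines Cxcl2 (-6.04) and Cxcl9 (-5.89) had the same order of groups. So did the co-stimulatory ligand Cd80 at 10.71 and 10.81 with compounds against 4.36 to 4.45 with Dox, and the macrophage lectin Clec4d at 9.21 and 9.42 against 2.91 to 3.23. Genes with other roles were Tnfrsf11b (osteoprotegerin, a decoy receptor; -6.58), Hamp (hepcidin, the iron hormone; -6.03) and Cnn3 (an actin-binding calponin; -5.87). Clec4d (-0.98) and Cxcl10 (-0.47) were also lower with Dox than in control, and the other 13 genes did not pass that test (limma adjusted p from 0.212 to 0.997). With Dox, Il6, Ifi205, Gbp4, Cxcl9 and Hamp were under the low-signal limit on all 3 arrays. The differences of Ifi205, Gbp4, Cxcl9 and Hamp become -6.81, -6.03, -5.81 and -5.44 if low values are set to that limit. Ceacam1, Klrb1f, Ifi205, Gbp4 and Iigp1 belong to families of similar genes, and signal from relatives was not tested.

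The interferon response list gave the same picture beyond the largest genes. Of its 19 members tested, 0 were higher with Dox and 18 were higher with compounds, with a median difference of -3.0, against a median of 0.02 over all genes. Iigp1, the GTPase that attacks parasite vacuoles, was at 9.23 and 9.33 with compounds and 2.85, 3.13 and 2.77 with Dox. Ifit1, which binds viral RNA, was at 9.19 and 9.41 against 4.18, 4.25 and 4.55. Rsad2 (viperin) was at 8.33 and 8.27 against 3.13 to 3.52, and the transcription factor Irf1 at 7.61 and 7.78 against 3.98 to 4.32. No Dox array reached the lower compound array in any of these, as in 23.4% of all genes tested. The members were named by their small p, so this separation is no further result. Ifit3 did not pass, at 3.86 to 3.88 with Dox and 3.47 and 4.09 with compounds. Against control, 18 of the 19 were higher with compounds, where 13.9% of all genes tested were. With Dox 6 were higher, 2 lower and 11 not called, where 8.87% of all genes tested were higher and 9.43% lower.

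Among NF-kB targets and cytokines, 22 of 23 tested genes were higher with compounds and 0 with Dox, with a median of -3.40. The chemokine Ccl17 was at 9.54 and 9.26 with compounds and 3.97, 4.32 and 3.81 with Dox. Its difference of -5.36 was smaller than those of Ptgs2, Il1b, Il6 and Cxcl2. Il12b did not pass, at 2.75 to 2.96 with Dox and 2.87 and 2.66 with compounds. Feedback inhibitors of cytokine signalling were high where the cytokines were: Socs1 was at 7.64 and 7.88 with compounds against 3.92 to 4.02 with Dox, and Socs3 at 7.69 and 7.64 against 4.15 to 4.62. In the list of growth factor receptors and feedback genes 12 of 21 were higher with compounds and 3 with Dox (median -0.81). The interleukin receptors split: Il1r1 was 2.31 higher with compounds, while Il6ra was at 7.04, 7.0 and 7.25 with Dox against 4.32 and 4.42. Csf2rb, the shared chain of the GM-CSF and interleukin-3 receptors, was 1.94 higher with compounds. In the immediate early list, 6 of 15 genes were higher with compounds and 2 with Dox (median -0.28). Atf3, Fosl2 and Jun were higher with compounds by 2.96, 1.77 and 2.22, in that order.

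Of 17 dendritic cell and antigen presentation genes, 11 were higher with compounds and 1 with Dox, Flt3 (median -1.89; 2 with Dox without Dox replicate 2). The class II chain H2-Ab1 was at 10.09 and 10.16 with compounds and 7.43, 7.56 and 7.30 with Dox, with controls at 7.84 to 8.04. H2-Aa and H2-Eb1, chains of the same class of molecules, differed by -2.98 and -2.23. Ccl22, a chemokine that draws T cells, was at 9.98 and 9.92 against 4.23, 3.88 and 4.19. In each of these genes the 3 Dox and 2 compound arrays did not overlap, as in 51.9% of all genes tested, and H2-Ab1, H2-Aa and Ccl22 were also lower with Dox than in control. Of 25 monocyte and macrophage genes, 11 were higher with compounds, 3 with Dox and 11 not called (median -0.31). The share called was 56.0%, against 31.4% of all genes tested. Cd14, the co-receptor for bacterial lipopolysaccharide, was at 9.71 and 9.66 with compounds and 4.82, 4.85 and 4.78 with Dox. Adgre1 (F4/80) was at 8.86 and 8.53 against 4.79, 4.85 and 4.48, and Gpnmb at 8.03 and 8.05 against 3.72, 4.07 and 3.61. The pore-forming Mpeg1 was 3.01 higher with compounds. Ccr2, the receptor that draws monocytes from the marrow, went the other way at 6.71, 6.62 and 6.62 with Dox against 4.40 and 4.09.

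**Figure D3:**
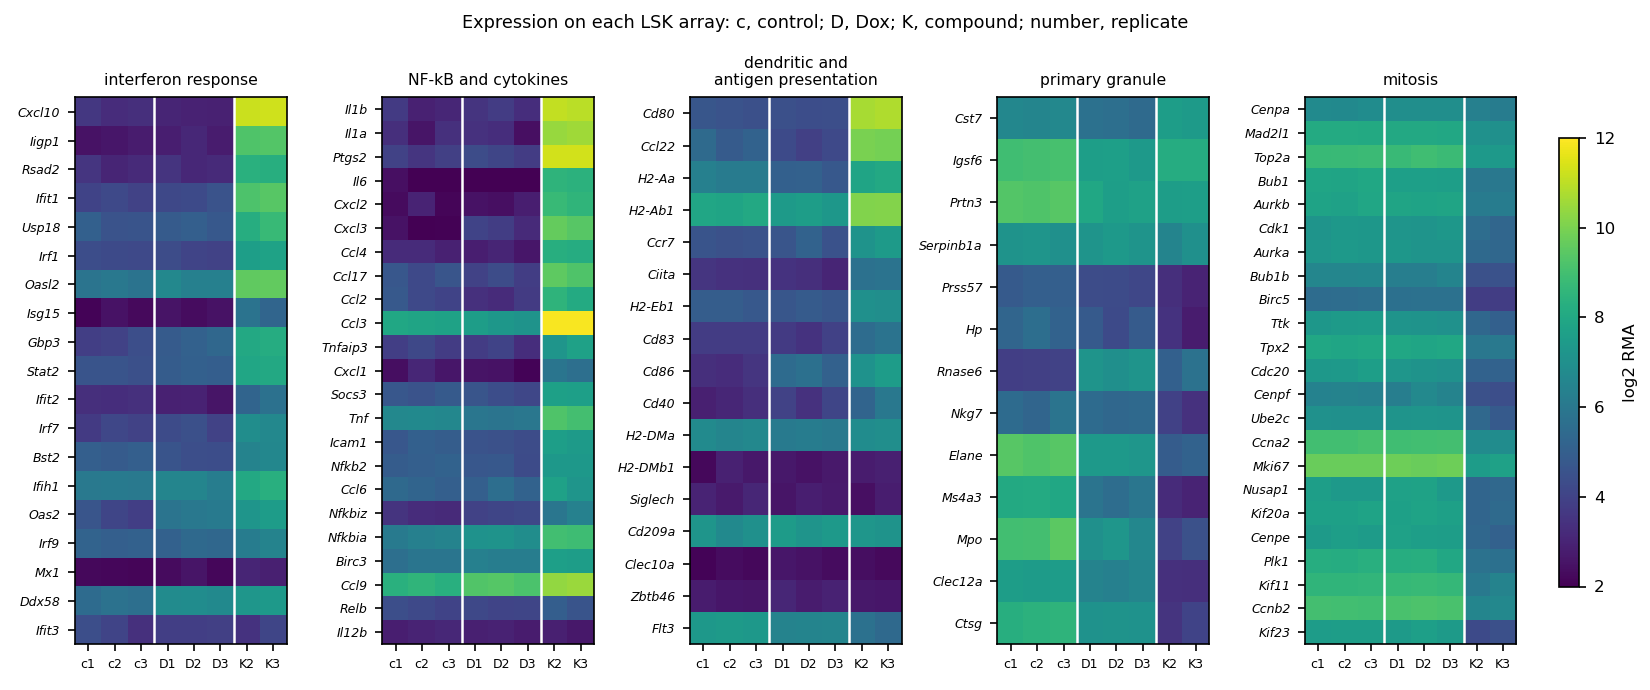
Log2 RMA level (colour) of the tested members of 5 gene lists (rows, sorted by Dox minus compound) on each LSK array (columns: 3 control, 3 Dox, 2 compound). In the interferon, NF-kB and antigen presentation panels the 2 compound columns are bright and the control and Dox columns dark for most rows; in the mitosis panel the compound columns are the dark ones in all 23 rows.

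Marker genes of other cell types moved with these groups. The summed level of the 5 monocyte and macrophage markers was 10.28 to 10.42 on the compound arrays, 6.67 to 6.87 with Dox and 7.18 to 7.19 in control. Within it Cd14 and Adgre1 were high with compounds, Csf1r (4.76 to 5.19 with Dox, 5.29 to 5.40 with compounds) and Cx3cr1 (3.66 to 4.19 and 4.08 to 4.50) overlapped or lay close, and Mrc1 was under the low-signal limit on both compound arrays. Csf1r (-0.43) did not pass, but it did without Dox replicate 1 (-0.56). The sum of the 4 mast cell and basophil markers was 8.38 to 8.39 with compounds, 5.03 to 5.27 with Dox and 7.46 to 7.51 in control. Within it only Cpa3 was high with compounds (8.30 to 8.31). Mcpt8 was higher with Dox, and Fcer1a and Ms4a2 overlapped between the treatments. The part of these cell types in the differences was not tested. In a bulk sample more cells of a type and more RNA per cell cannot be told apart.

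The mast cell and basophil list had 3 of 10 genes higher with compounds and 1 with Dox (median -0.13), and the 1 became 0 without compound replicate 2 and 2 without compound replicate 3. Cpa3, the carboxypeptidase of mast cell granules, was at 8.30 and 8.31 with compounds, at 3.91, 4.12 and 3.85 with Dox and at 6.60 to 6.71 in control. Hdc, which makes histamine, was 3.06 higher with compounds, and Csf2rb2, a second beta chain of the interleukin-3 receptor, 4.11 higher. Mcpt8, a basophil protease, was at 3.12 to 3.19 with Dox and 2.59 and 2.74 with compounds, against 5.72 to 6.08 in control. Prss34 (-0.25) did not pass, nor did Mcpt8 without compound replicate 2 (0.42). Platelet and megakaryocyte genes were split, 8 of 19 higher with Dox and 4 with compounds. Thbs1 (thrombospondin) was at 9.60 and 9.49 with compounds against 5.80, 6.15 and 6.0 with Dox, and Pf4 at 6.77 and 7.55 against 4.68, 4.67 and 4.82. Mmrn1, Nbeal2 and Rab27b, genes of platelet granules, were higher with Dox by 1.91, 1.22 and 1.09. The 3 megakaryocyte markers summed to 6.87 to 7.17 with Dox, 7.95 to 8.34 with compounds and 5.47 to 5.85 in control. Pf4 and Ppbp carried this sum. Gp9 went the other way, at 3.84 to 4.00 with Dox, 3.16 to 3.44 with compounds and 4.44 to 4.99 in control.

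Of 20 lysosome and autophagy genes tested, 16 were higher with compounds and 3 with Dox, with a median of -0.74. The cathepsin Ctsl was at 8.13 and 8.20 with compounds against 5.40, 5.90 and 5.82 with Dox, and Ctsz at 10.71 and 10.86 against 9.02 to 9.16. Ctsb, Lamp2 and Gaa were higher with compounds by 1.40, 1.10 and 1.20. The 3 genes higher with Dox became 1 without Dox replicate 1 or without compound replicate 2. Glycolysis and hypoxia genes were higher with compounds in 9 of 17 and with Dox in 0, or 1 without compound replicate 2 (median -0.31). Hk2, the hexokinase that starts glycolysis, was at 7.56 and 7.63 with compounds and 5.33, 5.39 and 5.37 with Dox. Vegfa (-1.80), the glucose transporter Slc2a1 (-1.13), the hypoxia-induced Egln3 (-1.63) and the lactate exporter Slc16a3 (-1.02) had the same order. Of the oxidative stress genes 7 of 16 were higher with compounds and 5 with Dox. Slc7a11, the cystine importer, was at 8.03 and 7.85 with compounds against 3.59 to 3.89 with Dox, and Hmox1 and Sod2 differed by -2.88 and -2.16. Gclm (1.49) and Nqo1 (1.26) were higher with Dox, so that antioxidant genes did not go one way.

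Genes of mitosis were higher with Dox without exception in the list. All 23 tested were higher with Dox than with compounds, and the median difference was 2.0. Kif23, a motor of cell division, was at 7.45, 7.65 and 7.45 with Dox and 4.24 and 4.45 with compounds. Ccnb2 (a mitotic cyclin) was at 9.11, 9.22 and 9.14 against 6.55 and 6.68, and the mitotic kinase Plk1 at 8.21, 8.27 and 7.99 against 5.77 and 5.70. Every Dox array lay above both compound arrays in all 23 genes, as in 28.5% of all genes tested. Dox levels lay near those of control: against control 0 of the 23 were higher and 1 was lower with Dox, while all 23 were lower with compounds (median -2.08), where 9.43% of all genes tested were lower with Dox and 19.3% with compounds. Kif20a and Ccna2 differed between Dox and compounds by 2.38 and 2.13 and between Dox and control by 0.00 and -0.02. DNA replication genes were higher with Dox in 21 of 26 and with compounds in 0 (median 0.58). The replication factor Mcm10 was at 6.28 to 6.44 with Dox and 5.11 and 5.19 with compounds. The ribonucleotide reductase subunit Rrm2 was at 6.51 to 6.76 against 5.29 and 5.05. Pole, Pola1 and Mcm5 were higher by 1.26, 0.79 and 0.84. Both treatments had members under control here, 11 of 26 with Dox (9.43% of all genes tested) and 25 of 26 with compounds (19.3% of all). Of 12 histone genes 8 were higher with Dox and 0 with compounds (median 0.61). Against control, 0 of the 12 were higher and 1 was lower with Dox (median -0.14; 9.43% of all genes tested were lower). With compounds 8 were lower and 0 higher than control (median -0.97), where 19.3% of all genes tested were lower. The linker histone H1f5 was at 8.33 to 8.43 with Dox against 6.06 and 6.15. H2ax, H1f1, H1f2 and H2az2 were higher with Dox by 1.76, 2.01, 1.52 and 1.74.

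Regulators of entry into the cycle differed gene by gene. Ccnd3, a D-type cyclin, was at 7.39, 7.39 and 7.30 with Dox and 5.58 and 5.37 with compounds, while Ccnd2 was at 8.14 to 8.29 against 9.87 and 10.00. In the list of cyclins of the first phase and E2F-Rb genes 9 of 15 were higher with Dox and 2 with compounds (median 0.31), among them E2f8 (1.51), E2f2 (1.51) and Rb1 (0.76) with Dox. The 2 were Ccnd2 and Ccnd1, and Ccnd1 did not pass without compound replicate 3 (-0.61). Of the 7 inhibitors of cyclin-dependent kinases, Cdkn1a (p21) was at 9.61 and 9.56 with compounds against 8.23 to 8.42 with Dox. Cdkn2c and Cdkn2d were higher with Dox by 1.50 and 1.25, and Cdkn2b and Cdkn1c by 0.53 and 0.57. Cdkn2b did not pass without Dox replicate 3 (0.40) or compound replicate 2 (0.45), nor Cdkn1c without Dox replicate 1 (0.43), Dox replicate 2 (0.59) or compound replicate 3 (0.34). Cdkn2a (-0.08) and Cdkn1b (-0.05) did not pass. Of the p53 targets tested, 8 of 20 were higher with compounds and 5 with Dox (median -0.04), and the 5 became 2 without compound replicate 2. The death receptors Fas and Tnfrsf10b were higher with compounds by 3.15 and 2.35, Cdkn1a by 1.26 and Plk2 by 1.55, whereas Gtse1 was 1.40 higher with Dox. In the BCL2 family 5 of 13 were higher with compounds and 0 with Dox (38.5% called, against 31.4% of all genes tested). The 5 were the death-promoting Bcl2l11 (-1.55), Pmaip1 (-1.27) and Bak1 (-0.43) and the protective Bcl2 (-0.67) and Bcl2l1 (-0.51), so that both kinds were among them. They became 3 without compound replicate 3, when Bak1 (-0.46) and Bcl2l1 (-0.40) no longer passed. Bak1 was also lost without Dox replicate 1 (-0.37) or compound replicate 2 (-0.40), and without the latter 1 family member was called towards Dox.

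Primary granule genes of the myeloid line were mostly lower with compounds than with Dox. Of 13 tested, 10 were higher with Dox and 2 with compounds (median 1.70). Against control, 10 were lower with Dox and 10 with compounds, on the same control arrays, where 9.43% and 19.3% of all genes tested were lower. Elane (neutrophil elastase) was at 9.26 to 9.40 in control, at 7.37, 7.37 and 7.24 with Dox and at 4.92 and 5.13 with compounds. Ctsg (cathepsin G) was at 8.27 to 8.50 in control, 7.09 to 7.13 with Dox and 3.49 and 4.00 with compounds. The lectin receptor Clec12a and the granulocyte-monocyte progenitor gene Ms4a3 had the same order, with differences of 3.10 and 2.65 between Dox and compounds. Cst7, a protease inhibitor, stood apart at 7.57 and 7.44 with compounds against 5.46 to 5.75 with Dox and 6.56 to 6.68 in control. Secondary granule and neutrophil genes gave 7 of 15 higher with Dox and 3 with compounds. Chil3 was at 6.41, 6.64 and 6.75 with Dox against 3.38 and 3.63, and S100a8 at 8.32, 8.49 and 8.44 against 6.42 and 6.64. The collagenase Mmp8 was at 8.13 and 8.04 with compounds against 4.13 to 4.42, and Lcn2 was 1.41 higher with compounds. Padi4 was 2.07 higher with Dox. The 5 neutrophil markers summed to 9.49 to 9.67 in control, 8.92 to 9.08 with Dox and 6.98 to 7.09 with compounds, and their part in these differences was not tested.

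Genes of stem and progenitor cells also separated the treatments. In the list of surface genes 12 of 20 were higher with Dox and 2 with compounds (median 0.59). Besides Thy1 and Flt3, the 12 included Cd48 at 7.41, 7.41 and 7.57 with Dox against 6.08 and 5.98, and the angiopoietin receptor Tek at 3.98, 4.24 and 4.36 against 2.44 and 2.20. Slamf1 (CD150), which is used with Cd48 to sort stem cells, was at 3.72 and 4.21 with compounds and under the low-signal limit on all Dox arrays. Kit, the receptor used in the sort, was at 8.57 on both compound arrays, at 6.89, 7.02 and 6.96 with Dox and at 7.66 to 7.76 in control, so that the treatments lay on opposite sides of control. Transcription factors of stem cells split, 8 of 26 higher with Dox and 6 with compounds. Gfi1, a repressor that works with LSD1, was at 7.31 and 7.51 with compounds against 4.27, 4.30 and 4.26 with Dox. Meis1 and Lyl1 were higher with Dox by 1.11 and 1.15 and Pbx3 by 0.75, and Myb was 0.66 higher with compounds. Of 17 myeloid transcription factors 7 were higher with compounds and 2 with Dox, with Id2 (-2.17), Batf (-2.25), Cebpb (-0.97) and Irf4 (-1.48) on the compound side and Cebpa (0.76) on the Dox side.

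**Figure D4:**
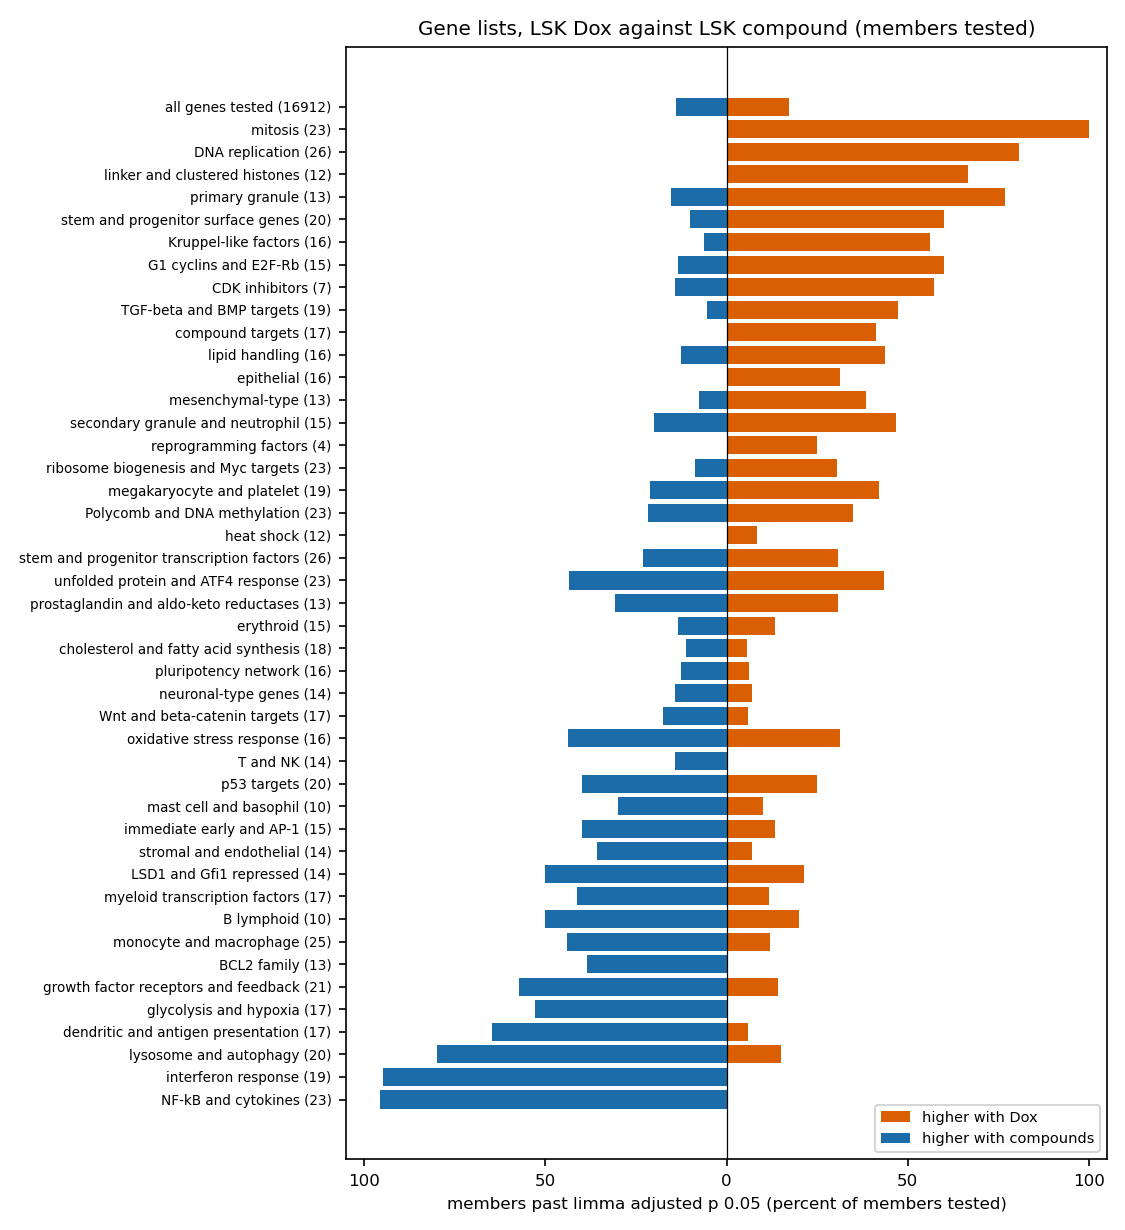
Percent of the tested members of 44 gene lists that were higher with Dox (orange, to the right) or higher with compounds (blue, to the left) at a limma adjusted p of 0.05, with all genes tested in the top bar (17.3% and 14.1%). Mitosis has the longest orange bar, and the NF-kB and interferon lists have the longest blue bars.

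The Kruppel-like factors, the family of Klf4, were more often higher with Dox. Of 16 tested without Klf4, 9 were higher with Dox and 1 with compounds (median 0.61). Klf9 was at 6.43, 6.77 and 6.68 with Dox against 3.77 and 4.11 with compounds and 5.50 to 5.60 in control. Klf3 was at 7.74, 7.79 and 7.53 against 5.52 and 5.30, and Klf12 at 5.16 to 5.60 against 3.36 and 2.92. Klf10 and Klf13 were higher by 2.27 and 1.55, and Klf13 by 1.03 without compound replicate 3. Klf7 (-0.39), the 1 on the compound side, did not pass without Dox replicate 2 (-0.31), Dox replicate 3 (-0.39) or compound replicate 3 (-0.28). The pluripotency network list showed few differences between the treatments. Of its 16 genes tested, 13 were not called (3 of 16 called, 18.8%, against 31.4% of all genes), Gdf3 (0.82) was higher with Dox, and Tdgf1 and Dnmt3l were higher with compounds. Tdgf1 (Cripto), a co-receptor of Nodal, was at 5.26 and 5.48 on the compound arrays and under the low-signal limit on all Dox arrays. Dnmt3l (-0.47) and Gdf3 lay close to that limit. Neither passed without compound replicate 3 (-0.30 and 0.60), and Dnmt3l did not without Dox replicate 3 (-0.32).

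Genes of the proteins and pathways that the compounds act on were next. The target list took the histone deacetylase genes from Hdac1 to Hdac11, whether or not VPA inhibits each enzyme. Of 17 target genes tested, 7 were higher with Dox and 0 with compounds (median 0.29). That is 41.2% called, against 31.4% of all genes tested. Against control, 8 of the 17 were lower and 0 higher with compounds (median -0.31), where 19.3% and 13.9% of all genes tested were. With Dox 3 were lower and 4 higher than control (median 0.07), where 9.43% and 8.87% of all genes tested were. The class II histone deacetylase Hdac5 was at 6.14, 5.99 and 6.01 with Dox and 4.90 and 4.32 with compounds, and Hdac10, Hdac4 and Hdac9 were higher with Dox by 1.07, 0.99 and 0.86. Hdac9 was under the low-signal limit on both compound arrays, and its difference becomes 0.60 if low values are set to that limit. Among the receptors of the TGF-beta family, Acvr1b was 1.44 higher with Dox. In the list of TGF-beta and BMP targets 9 of 19 were higher with Dox and 1 with compounds (median 0.26). Tgfbi was at 6.29, 6.12 and 5.90 with Dox, at 3.37 and 3.28 with compounds and at 6.49 to 6.69 in control. Ski and Skil, which dampen Smad signalling, were higher with Dox by 2.16 and 1.98, and Id1 by 1.65. Id2, a member of the same family as Id1, was at 7.15 and 7.37 with compounds against 4.97 to 5.18. Of 17 Wnt and beta-catenin targets, 1 was higher with Dox and 3 with compounds, and 13 were not called. The 4 called are 23.5% of the list, near the 31.4% of all genes tested. Axin2, a standard readout of beta-catenin, lay at 3.53 to 3.68 with Dox and 3.57 and 3.75 with compounds, but it is not among the 5 members with the smallest p and was named after its values were seen. Lef1 was 1.26 higher with Dox, and Nkd1 (-1.06), Ccnd1 (-0.78) and Apcdd1 (-0.54) were higher with compounds. Without compound replicate 3 the 3 became 1, as Ccnd1 (-0.61) and Apcdd1 (-0.50) no longer passed, and Apcdd1 (-0.45 to -0.60) was also lost without any other 1 of the 5 arrays. Genes known to be repressed by LSD1 and Gfi1 were higher with compounds in 7 of 14 and with Dox in 3 (median -0.55), with Cd14, Csf1 (-2.56) and Cd86 (-1.89) on the compound side and Ccr2 on the Dox side.

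Genes of cell shape, adhesion and lipid handling gave smaller groups on the Dox side. Of 16 epithelial genes 5 were higher with Dox and 0 with compounds (1 without Dox replicate 2, Dox replicate 3 or compound replicate 2). With all 5 arrays 31.2% of this list was called, near the 31.4% of all genes tested. Desmosome genes led: Perp was at 6.0, 6.35 and 6.57 with Dox against 3.13 and 3.47, and Dsp at 4.28 to 4.55 against 2.08 and 2.41. Cdh1 (E-cadherin) was at 3.42 to 3.71 against 3.03 and 2.78. Of 13 mesenchymal-type genes 5 were higher with Dox and 1 with compounds (2 without compound replicate 3). Beside S100a4 and S100a6 these included Sparc at 4.03 to 4.31 against 2.22 and 2.11, where the compound levels are under the low-signal limit. Vim (1.46) was also among them, with a level of 10.33 to 10.48 against 8.89 and 9.04. The membrane protease Mmp14 was at 8.40 and 8.17 with compounds against 3.71 to 3.93 with Dox. Lipid handling genes were higher with Dox in 7 of 16 and with compounds in 2. The cholesterol exporter Abca1 was at 6.43, 6.44 and 6.49 with Dox, 4.09 and 3.95 with compounds and 3.31 to 3.40 in control. Abcg1 (1.75), Lpl (1.66) and Cpt1a (1.22) were higher with Dox, and the lipid droplet coat Plin2 was 1.09 higher with compounds. In the prostaglandin list, Ptgs2 and Hpgds (-2.15) were higher with compounds and Akr1c18 and Alox5ap (2.07) with Dox.

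Some genes were at close levels with Dox and with compounds, and a direct comparison leaves little between them. These were chosen after their values were seen. Cd36, a scavenger receptor that takes up fatty acids, was at 2.68 to 2.83 in control, at 8.94, 9.06 and 8.81 with Dox and at 8.72 and 8.89 with compounds. Its difference was 0.13 with a 95% interval of -0.13 to 0.39, against rises from control of 6.20 with Dox and 6.07 with compounds. Procr, a surface marker of stem cells, was at 3.61 to 3.91 in control, 6.53, 6.40 and 6.77 with Dox and 6.24 and 6.80 with compounds (interval -0.28 to 0.38). Nr4a1 was at 6.29 to 6.39 and at 6.41 and 6.85 (interval -0.60 to 0.03), and Car2 at 10.13 to 10.27 and 10.30 and 10.36 (interval -0.40 to 0.15). How far Nr4a1 and Car2 lay from control is not given here. For Selp (P-selectin) and the platelet chemokine Ppbp both groups were far above control, as for Cd36 and Procr. Their levels with compounds were higher than with Dox by 0.62 and 0.58. Selp did not pass without compound replicate 3 (-0.43), and Nr4a1 passed without compound replicate 2 (-0.50).

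The same contrast in the leukemia cells shares no array with that in LSK cells. The difference between Dox and compounds in LSK cells and that in AML cells were themselves different for 7283 of 16912 genes (43.1%) in limma, 3834 in the positive and 3449 in the negative direction. Across genes the 2 differences had a Pearson r of 0.171 (16912 genes, which are not independent, on arrays normalised together). The contrast within AML cells was not tested here, and its values are given as levels. The interferon list shows the difference at the level of a group: in 18 of 19 genes the difference in LSK was lower than that in AML (median -3.47), as in 20.4% of all genes tested. Ifit1 in AML cells was at 6.89 ± 0.08 (SD, n = 3) with Dox and 4.33 ± 0.06 (n = 3) with compounds, the opposite order to LSK. Iigp1 was at 4.34 ± 0.33 and 2.52 ± 0.26 there, again higher with Dox. Ptgs2 was at 6.36 ± 0.11 and 6.22 ± 0.11 in AML cells, 0.13 apart. Klrb1f was at 2.99 ± 0.21 and 5.36 ± 0.10, higher with compounds, where in LSK it was the gene farthest on the Dox side. In the mitosis list the difference, Dox minus compound, was higher in LSK than in AML for 22 of 23 genes (median 2.57), as in 22.7% of all genes tested. By contrast the order was shared for Hbb-y, at 7.63 ± 0.30 and 3.20 ± 0.30 in AML, and for Klf4, at 9.14 ± 0.08 and 3.44 ± 0.22. It was shared also for Clec4d, at 2.0 ± 0.18 and 8.22 ± 0.30, whose contrasts in the 2 cell types differed by -0.02 ± 0.27 (SE), and for H2-Ab1, at 4.40 ± 0.05 and 7.12 ± 0.11, by 0.02 ± 0.14.

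**Figure D5:**
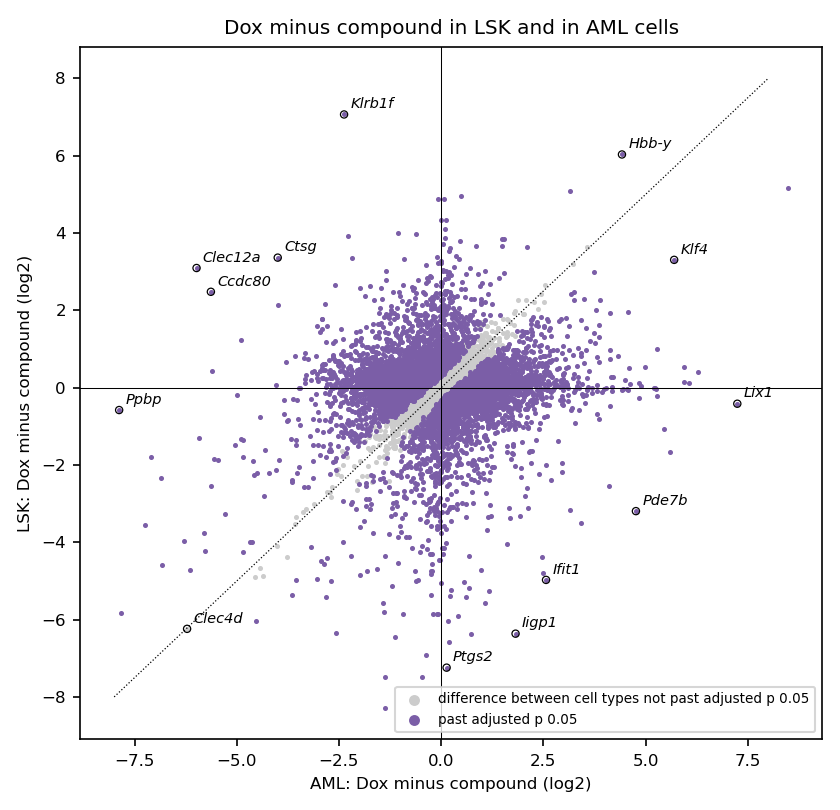
Dox minus compound in LSK cells (y axis, log2) against the same contrast in AML cells (x axis, log2) for 16912 genes; purple genes differ between the cell types in limma at an adjusted p of 0.05, and the dotted line marks equal contrasts. Klrb1f, Clec12a and Ctsg lie high on the left, Iigp1, Ifit1 and Pde7b low on the right, and Clec4d lies on the dotted line.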

How the data were processed

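Mouse LSK and AML cells were measured on 18 Affymetrix whole-transcript arrays, 3 in each of 6 groups. Probe set levels were deposited as log2 values, made by the authors with RMA per the submitters' processing notes. The genome build, the RMA version and whether the failed array entered RMA are not stated, so levels are relative within this table. Scanner files were not used here.

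Of 41345 probe sets, 23521 named 1 gene, 1814 several, and 16010 were not in the probe table. Of those with 1 gene, 23328 matched the RefSeq gene table by Entrez ID, which gave 22180 genes, each by its probe set with the highest mean over 17 arrays. Tested were the 16912 genes above the 40th percentile of the array on at least 2 of the 17 arrays. limma 3.58.1 (R 4.3.3) fitted 1 mean per group over the 17 arrays without LSK compound replicate 1, with no scaling added here. eBayes moderated the variances (11 residual and 5.34 prior degrees of freedom), and p was adjusted by Benjamini-Hochberg over all genes tested. Intervals are 95%. The number of arrays, 2 on the compound side, limits the precision. The fit was tested on 17 simulated arrays with equal LSK Dox and LSK compound means, in which 200 of 16912 genes were then changed. It called 38% of the genes set to a log2 difference of 0.5, 92% at 1 and 100% at 2 and 3, with 12 false calls. Far fewer genes were changed there than were called in the data, and the noise was independent and normal. These shares therefore do not carry over to the data. The replicate numbers were not used as pairs: the deviations of LSK Dox and LSK compound arrays with the same number correlated at -0.0207 and -0.0456.

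Named are the 15 largest differences each way whose groups do not overlap, the 5 largest each way for the contrast between cell types, up to 5 members of each list with the smallest p, the 4 factors, the sex-linked genes and the cell type markers. Predicted genes and small RNA genes were left out of that ranking. Ifit3, Il12b, Klf7, Axin2, Cd36, Procr, Nr4a1, Car2, Selp and Ppbp in the comparison with control, and the AML values of Hbb-y, Klf4, Clec4d and H2-Ab1, were named after their values were seen. The comparison and the 45 gene lists were chosen with earlier results of these data known, so list counts are descriptions and carry no test. The alternatives tried were the groups compared alone, all 18 arrays, array weights, a replicate block, median centring, quantile normalization, 2 other filters, averaged probe sets, a floor, trended robust variances, and leaving out each array.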

Additional observations from a re-analysis of the deposited data

Results flagged for a closer look

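Genes whose difference between Dox and compounds was itself different in LSK and AML cells stand out in size. The value given is the LSK difference minus the AML difference on the log2 scale, and all 10 passed limma at an adjusted p under 0.05 over all genes, as did 43.1% of the genes tested. On the positive side were Klrb1f (9.44), the lectin receptor Clec12a (9.08), the matrix gene Ccdc80 (8.12), Ctsg (7.36) and Ppbp (7.30). On the negative side were Iigp1 (-8.18), the phosphodiesterase Pde7b (-7.96), Lix1 (-7.66), Ifit1 (-7.54) and Ptgs2 (-7.38).

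These values arise in different groups. Lix1 was near background in LSK cells under both treatments, at 1.82 to 2.14 with Dox and at 2.08 and 2.64 with compounds, and in AML cells it was at 9.20 ± 0.23 (SD, n = 3) with Dox. Ppbp was high in AML cells with compounds, at 10.46 ± 0.08, and at 2.58 ± 0.18 there with Dox. Ccdc80 was at 6.67 to 6.71 in LSK cells with Dox and at 8.36 ± 0.38 in AML cells with compounds. Clec12a was at 2.82 ± 0.13 in AML cells with Dox and at 3.38 and 3.36 in LSK cells with compounds, so that the low group was another one in each cell type. Pde7b was high with Dox in AML cells (8.51 ± 0.09) and with compounds in LSK cells (5.96 and 6.39).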

How the results depend on the processing

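The failed array mattered most. With all 18 arrays in the fit, 2577 genes were called between LSK Dox and LSK compound in place of 5309, 604 in place of 3094 for Dox against control, 2959 in place of 5611 for compounds against control, and 3698 in place of 7283 for the contrast between cell types. Of the 208 gene results printed, 46 were no longer called there and 10 changed sign: Bak1 (0.78), Ccnd2 (0.58), Cdkn1a (0.80), Ctsb (0.75), Egln3 (0.045), Lamp2 (0.63), Myb (1.22), Ppbp (0.67), Selp (0.71) and Slc2a1 (0.41). With array weights the failed array had a weight of 0.00704 and 7706 genes were called. Under the other alternatives 0 gene results changed sign, and 192 of 208 kept direction and call. For LSK Dox against LSK compound, the alternatives without the failed array and with all 5 arrays gave 4745 to 5554 calls. Leaving out 1 array at a time gave 4121 to 4852 calls for LSK Dox against LSK compound, 2405 to 2540 for Dox against control, 4355 to 5170 for compounds against control and 6521 to 7269 for the contrast between cell types. The lowest count of the first came without compound replicate 3. With the replicate number as a block, which the labels do not call a pairing, 5122 genes were called for LSK Dox against LSK compound. These designs have 2 compound arrays, and a lone remaining array was assumed to vary like the other groups.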
